A study of Mus musculus with 16 samples.

Results

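Small leucine-rich proteoglycans are secreted matrix proteins built on a short core of leucine-rich repeats. The members described here are the 8 genes Dcn (decorin), Lum (lumican), Bgn (biglycan), Fmod (fibromodulin), Ogn (osteoglycin), Omd (osteomodulin), Prelp (proline and arginine-rich end leucine-rich repeat protein) and Aspn (asporin). They were taken by symbol from a table of 13733 genes, and each symbol named 1 row. RNA of knee joint cells was sequenced in 16 libraries from C57BL/6 wild-type (WT) and Trem2-/- mice. Each genotype had 4 libraries at D0 (uninjured) and 4 at D7, that is 7 days after a tibial compression that injures the anterior cruciate ligament. Trem2-/- mice carry the germline allele Trem2em2Adiuj on the C57BL/6J background and lack functional Trem2, a lipid-sensing receptor of macrophages and other myeloid cells, in every cell. According to the labels the mice were 10 weeks old at injury, although another label field gives an age of 16 weeks. The methods describe male mice and cells released from the dissected joint with collagenase, and do not say whether these bulk libraries were enriched for or depleted of immune cells, whereas a label field speaks of homogenised joints. Nothing beyond the sample titles says how the 4 samples of a group relate or how many animals a library holds, so p-values measure only the spread between these samples, which may be technical.

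The members bind collagen fibrils and set how thick the fibrils grow and how they are spaced. Their cores hold collagen, growth factors of the TGF-β family and complement components, and carry chondroitin or dermatan sulfate chains (decorin, biglycan), keratan sulfate chains (lumican, fibromodulin, osteomodulin, osteoglycin), or few or no such chains (asporin, PRELP). Fragments of the proteins released from damaged cartilage and synovium can signal through innate immune receptors, and fibroblasts, tendon cells, chondrocytes and osteoblasts are their usual sources in the joint.

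The family is divided into classes by the spacing of 4 cysteines in front of the repeats, and the class order is used below. The coding sequence around these cysteines is shown for all 8 members, 5′ to 3′ on the coding strand with 2 codons on either side and the cysteine codons in capitals, because it separates the members that share a structure. It was read from the GENCODE M21 coding sequences (GRCm38, the build called mm10 in the processing notes), and it lies in exon 4 of Ogn, exon 3 of Omd and exon 2 of the other members.
Dcn: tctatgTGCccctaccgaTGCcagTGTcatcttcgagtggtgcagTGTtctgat
Bgn: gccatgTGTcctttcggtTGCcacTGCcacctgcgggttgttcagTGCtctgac
Aspn: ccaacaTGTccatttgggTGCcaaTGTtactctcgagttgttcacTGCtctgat
Lum: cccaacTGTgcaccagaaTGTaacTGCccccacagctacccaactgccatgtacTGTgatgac
Fmod: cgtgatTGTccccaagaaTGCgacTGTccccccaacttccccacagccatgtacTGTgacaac
Prelp: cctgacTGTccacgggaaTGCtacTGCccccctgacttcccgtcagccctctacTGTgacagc
Omd: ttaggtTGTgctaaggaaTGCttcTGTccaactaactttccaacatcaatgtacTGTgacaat
Ogn: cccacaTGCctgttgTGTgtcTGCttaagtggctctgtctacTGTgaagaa
Decorin, biglycan and asporin (class I) had gaps of 3, 1 and 6 codons between the cysteines. Lumican, fibromodulin, PRELP and osteomodulin (class II) had gaps of 3, 1 and 9, and osteoglycin (class III) had gaps of 2, 1 and 6. The stretches lie at chr10:97483501-97483554 for Dcn, chrX:73490973-73491026 for Bgn, chr13:49551859-49551912 for Aspn, chr10:97568347-97568409 for Lum, chr1:134040443-134040505 for Fmod, chr1:133915145-133915207 for Prelp (minus strand), chr13:49589653-49589715 for Omd and chr13:49615560-49615610 for Ogn.

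Libraries held 11567073 to 32867818 reads, so every member was far above the detection floor: the lowest value of any member in any library was 255 reads. All 8 members passed the low-value filter. Trem2 checked the genotype labels: it stood at 10.7 to 22.5 CPM, the TMM-normalized read count scaled to library size, in WT D7 and 3.42 to 4.84 CPM in Trem2-/- D7, while at D0 the WT range of 2.51 to 5.61 CPM overlapped the Trem2-/- range of 0.948 to 2.68 CPM. The WT D0 libraries stood apart from each other. Their 8 members together reached 8919, 2227, 5022 and 11568 CPM in replicates 1 to 4, and replicate 2 was the lowest of the group for 8 of 8 members. Summed fibroblast markers in the same libraries were 688, 216, 322 and 758 CPM, chondrocyte markers 4621, 745, 7739 and 13140.4 CPM and leukocyte markers 2961, 5450.0, 5815 and 3570.2 CPM. Counts of calls in the comparisons that use WT D0 are also given without replicate 2, a choice made after seeing the data for the gene lists and the overlaps. Since replicate 2 was the lowest for every member, leaving it out raises each member's WT D0 mean by construction. Each member's WT injury difference and D0 genotype difference then move down, and its interaction term moves up.

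Injury was accompanied by a higher level of small leucine-rich proteoglycan transcripts in both genotypes. In WT joints 5 of the 8 members were called higher at D7 (Bgn, Lum, Aspn, Fmod and Prelp), and in Trem2-/- joints 7 of the 8 were. Decorin was not called in Trem2-/-, although its mean at D7 was 1.76 times that at D0 and the groups did not overlap. The largest differences were those of biglycan in WT, whose mean was 4.10 times that at D0, and of lumican in Trem2-/-, with 8.70 times. Summed, the members took 0.270 to 1.21% of the reads of uninjured WT samples and 1.11 to 1.56% of injured ones. In Trem2-/- samples the share was 0.384 to 0.476% before and 1.24 to 1.59% after injury. A call required an unadjusted p under 0.05 and a fold change above the limit used in the original methods, tested with limma, and p-values adjusted by Benjamini-Hochberg over the 13173 genes tested are given beside it. In counts of genes below, rose and fell stand for called higher and called lower. Of the 13173 genes tested, 2395 fell in WT and 3680 in Trem2-/-. In WT, 19.3% of all genes tested were called higher at D7 against 5 of 8 members, of which 4 also had an adjusted p under 0.05 (15.9% of all genes). In Trem2-/-, 26.5% of all genes were called higher against 7 of 8 members, all 7 also after adjustment (26.0% of all genes). The median difference of the members on the log2(CPM + 1) scale was 1.13 in WT and 2.02 in Trem2-/-, where the median over all genes was -0.04 in either genotype. Without WT D0 replicate 2, 4 members were called in WT, Bgn (1.94), Lum (1.28), Aspn (0.93) and Prelp (0.71). Of the 13173 genes tested, 2113 were then called higher. The remaining differences were then 0.63 (Fmod), 0.36 (Omd), -0.19 (Ogn) and -0.21 (Dcn), and the median of the 8 was 0.67. In bulk RNA a larger number of producing cells and more transcript per cell cannot be told apart.

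**Figure D1:**
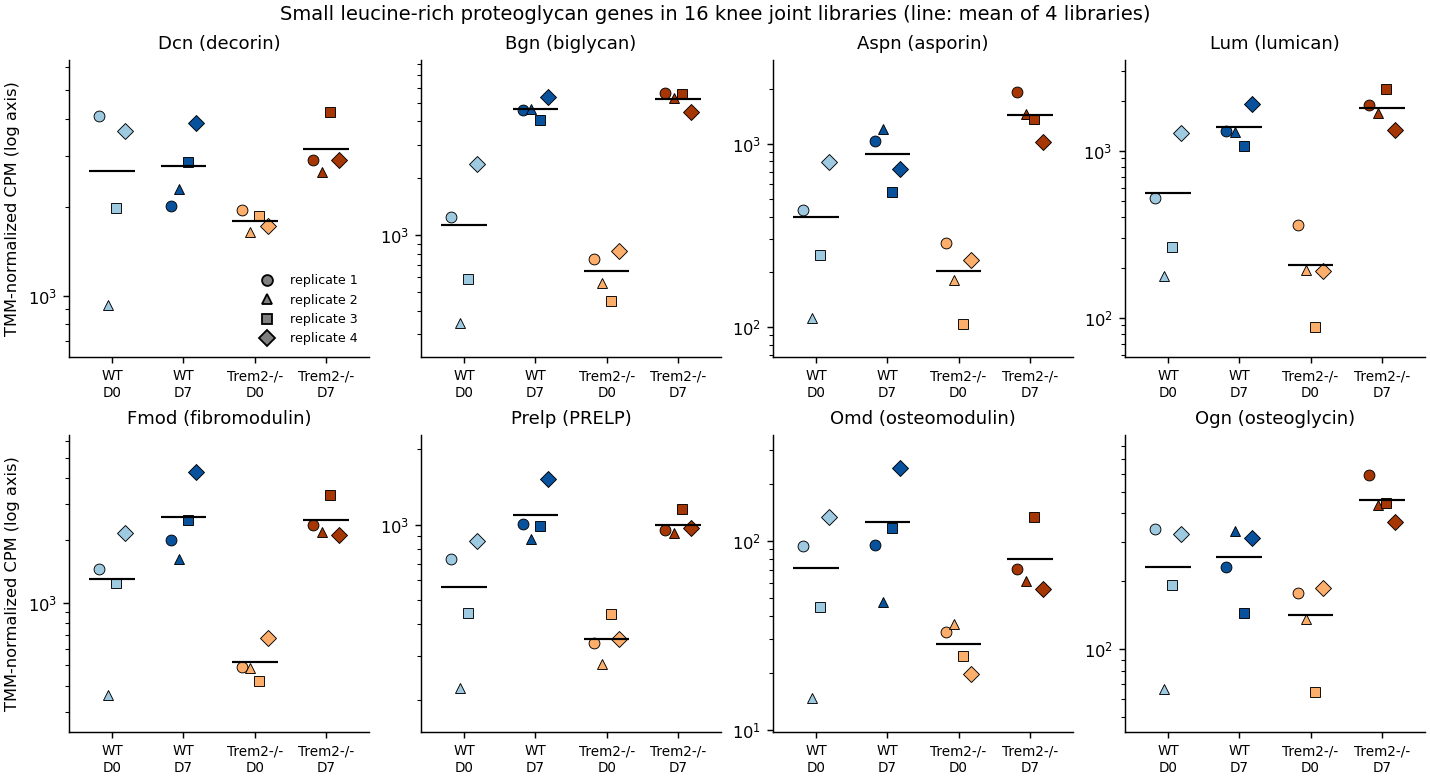
TMM-normalized CPM of the 8 members in each of the 16 libraries, on a log axis with its own range in each panel; marker shape gives the replicate number and the line the mean of 4 libraries. The Trem2-/- D7 points lie above the Trem2-/- D0 points in all 8 panels, whereas the WT groups are apart only for Bgn and Prelp, and replicate 2 (triangle) is the lowest WT D0 point in every panel.

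Among the class I members, biglycan, which binds collagen and can signal through Toll-like receptors when soluble, was higher in all injured samples. Bgn stood at 1246, 343, 590.5 and 2369 CPM in the WT D0 samples and at 4583, 4632, 4048 and 5365 CPM in the WT D7 samples. In Trem2-/- samples it stood at 747, 558, 452 and 830.3 CPM at D0 and 5612, 5320.2, 5574 and 4498 CPM at D7. Every D7 sample exceeded every D0 sample, across genotypes as well. The log2 difference was 2.40 ± 0.43 (SE, n = 4 per group, adjusted p = 0.00174) in WT and 3.05 ± 0.43 (adjusted p = 5.61e-05) in Trem2-/-. Biglycan was called in both genotypes under every alternative run.

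Decorin, the fibril-spacing relative of biglycan that also binds TGF-β, was called in neither genotype. Dcn stood at 4097, 930.4, 1993 and 3649 CPM in WT D0 and 2018, 2309, 2848 and 3882 CPM in WT D7, so the D7 values lay inside the D0 range. In WT its log2 difference was 0.22 ± 0.38 (adjusted p = 0.677), with a 95% interval of -0.58 to 1.02. In Trem2-/- the values were 1954, 1654, 1861 and 1722 CPM at D0 and 2895, 2633, 4228 and 2899.7 CPM at D7. The 2 Trem2-/- groups did not overlap, but the log2 difference of 0.79 ± 0.38 just missed the call with the spread shared by all 4 groups. Its limma p was 0.0513 unadjusted and 0.0869 adjusted. It was called when these groups were fitted alone, and with edgeR, voom, a pseudocount of 0.1, median-of-ratios rescaling or the replicate number as a block. It was also called without WT D0 replicate 1, 2 or 4, but not with quantile normalization (0.23). Without WT D0 replicate 2 the WT difference turned to -0.21.

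Asporin, a core protein that binds collagen and TGF-β and carries a run of acidic residues, rose in both genotypes. Aspn stood at 432, 112, 248 and 792 CPM in WT D0 and 1041, 1207, 545 and 729 CPM in WT D7, with WT D0 replicate 4 above the lowest pair of D7 samples. In Trem2-/- it went from 287, 181, 103 and 231 CPM to 1909, 1456, 1369 and 1025 CPM, without overlap. The log2 differences were 1.43 ± 0.47 (adjusted p = 0.0357) in WT and 2.90 ± 0.47 (adjusted p = 1.70e-04) in Trem2-/-.

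Of the class II members, lumican and fibromodulin share a binding region on collagen, and lumican can present bacterial products to innate receptors. Lum stood at 521, 178, 267 and 1274 CPM in WT D0 and 1310.1, 1298, 1073 and 1893 CPM in WT D7, and WT D0 replicate 4 lay within the D7 range. In Trem2-/- the values were 359, 194, 87.8 and 191 CPM at D0 and 1875, 1692, 2328 and 1340.2 CPM at D7. Lumican was thus higher in every injured Trem2-/- sample than in any uninjured one, with a log2 difference of 3.25 ± 0.50 (adjusted p = 1.01e-04). In WT the difference was 1.69 ± 0.50 (adjusted p = 0.0211).

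Fmod stood at 1457, 359.7, 1242 and 2164 CPM in WT D0 and 2005, 1635, 2509 and 4287 CPM in WT D7, and at 492, 484, 423 and 675 CPM and 2377, 2203, 3311 and 2129.6 CPM in the corresponding Trem2-/- groups. The WT groups overlapped and the Trem2-/- groups did not. The log2 difference was 1.16 ± 0.43 in WT (adjusted p = 0.0546), which met the call but not the adjusted threshold, and was 0.63 and not called without WT D0 replicate 2. In Trem2-/- it was 2.27 ± 0.43 (adjusted p = 5.22e-04).

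Prelp, which encodes a core that anchors basement membranes to the collagen below them, rose in both genotypes. It stood at 732, 223, 443 and 863 CPM in WT D0 and 1005, 881, 986 and 1521 CPM in WT D7, and at 337, 278, 439 and 349.7 CPM and 949.7, 925, 1161 and 967 CPM in Trem2-/-. The groups were apart in both genotypes, in WT by the narrow gap between D0 replicate 4 and D7 replicate 2. The log2 differences were 1.10 ± 0.32 (adjusted p = 0.0207) and 1.52 ± 0.32 (adjusted p = 0.00114). Its annotated exons share 350 bases with Gm15851, an antisense gene, and whether strand was used in counting is not given in the sources used here.

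Osteomodulin, a keratan sulfate proteoglycan of mineralised matrix that is also known as osteoadherin, had the lowest level per kilobase of transcript in all 4 groups. Omd stood at 94.0, 14.6, 44.8 and 133 CPM in WT D0 and 94.9, 47.6, 117 and 241 CPM in WT D7, whose ranges overlap. The WT log2 difference was 0.97 ± 0.57 (adjusted p = 0.203), with a 95% interval of -0.24 to 2.17. In Trem2-/- it rose from 32.9, 36.4, 24.5 and 19.7 CPM to 70.9, 60.9, 134 and 55.3 CPM (log2 difference 1.41 ± 0.57, adjusted p = 0.0467), and this call was lost without Trem2-/- D0 replicate 4 or without Trem2-/- D7 replicate 3.

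Osteoglycin, the class III member, also called mimecan, was called after injury in Trem2-/- only; the difference between genotypes is tested below. Ogn stood at 342, 66.7, 193 and 323 CPM in WT D0 and 232, 335, 145 and 310.2 CPM in WT D7, so that injured and uninjured WT samples were mixed. In Trem2-/- it rose from 178, 136, 64.8 and 188 CPM to 593, 435, 446 and 366 CPM. The log2 differences were 0.32 ± 0.45 in WT (adjusted p = 0.614, 95% interval -0.64 to 1.28) and 1.78 ± 0.45 in Trem2-/- (adjusted p = 0.00407).

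Groups that did not overlap were counted for all genes in the same way. In WT, 2 of 8 members were higher in every D7 sample than in any D0 sample, where 12.9% of all genes were. They were again 2 (Bgn and Prelp) without WT D0 replicate 2, where 14.0% of all genes were. In Trem2-/-, 8 of 8 were, where 26.1% of all genes were. Leaving out 1 library at a time, the number of members called ranged from 4 to 6 in WT and from 6 to 8 in Trem2-/-.

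**Figure D2:**
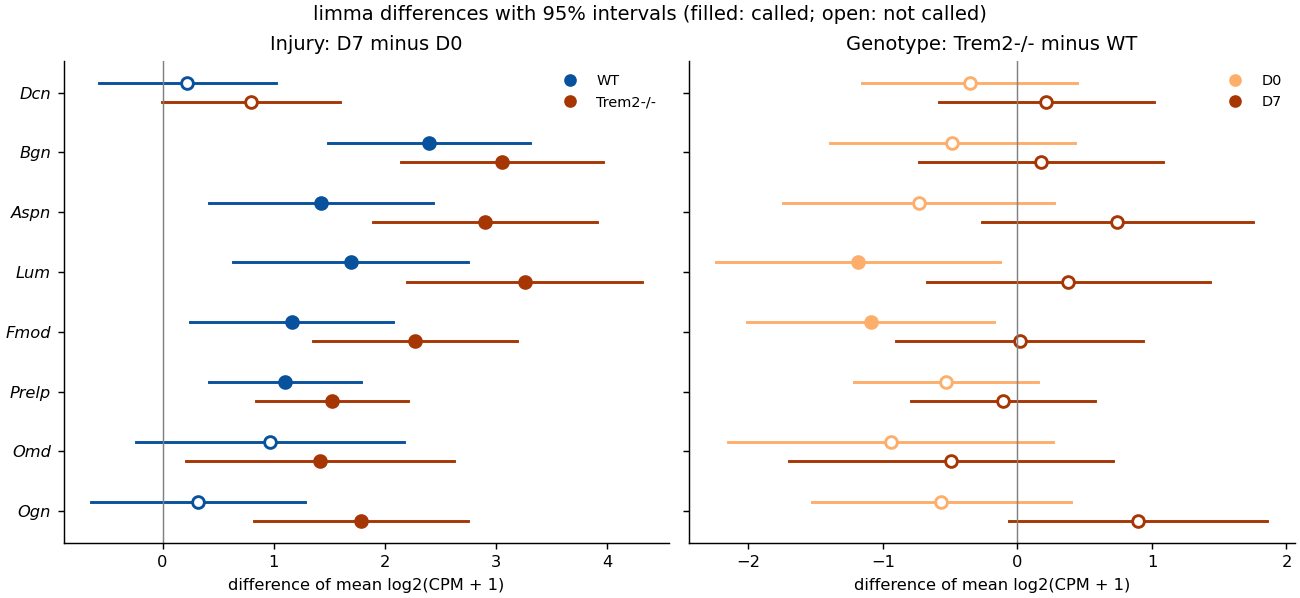
Differences of mean log2(CPM + 1) with 95% limma intervals for the 8 members, D7 minus D0 in each genotype (left) and Trem2-/- minus WT at D0 and D7 (right); filled points were called and open points were not. Every injury difference lies above 0, with 5 filled in WT and 7 in Trem2-/-, and only Lum and Fmod at D0 are filled on the right.

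Summed fibroblast markers were higher and leukocyte markers mostly lower after injury, and markers of the other source cells are given further below. The sum of 8 fibroblast markers that are not matrix genes (such as Pdgfra, Prrx1 and Thy1) was 216 to 758 CPM in WT D0 and 835 to 1131 CPM in WT D7. In Trem2-/- it was 177 to 425 CPM at D0 and 1043 to 1279 CPM at D7. Of these 8 markers, 5 rose in WT and 8 in Trem2-/-. All 7 leukocyte markers fell in both genotypes, with sums of 2961 to 5815 CPM in WT D0 and 1632 to 3627 CPM in WT D7. The Trem2-/- sums were 3675 to 6403 CPM at D0 and 1284 to 1644 CPM at D7. No fibroblast or leukocyte marker was at 0 in any group. When each member was expressed relative to the mean log2 level of the fibroblast markers in its own library, the median of the 8 differences was -0.01 in WT and 0.11 in Trem2-/-. By construction the median of all genes moved to -1.19 in WT and -1.96 in Trem2-/-, and 1.29% and 1.32% of all genes were called higher. On that scale biglycan was still called higher at D7, by 1.26 in WT and 1.14 in Trem2-/-, and lumican (1.34) and asporin (0.98) were called higher in Trem2-/-. Decorin was called lower relative to the markers in both genotypes (-0.92 in WT and -1.13 in Trem2-/-), and osteoglycin was called lower in WT (-0.82). Lower calls were the background on that scale, since 78.4% of all genes were called lower in WT and 92.1% in Trem2-/-, so 2 of 8 and 1 of 8 members were fewer than the share of all genes. That scale partly follows the members, since the markers Twist1 (r = 0.978) and Fap (r = 0.977) were among the genes closest to them over the 16 libraries. Smaller differences on it are therefore partly built in. The part of cell composition in the injury differences was not tested.

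**Figure D3:**
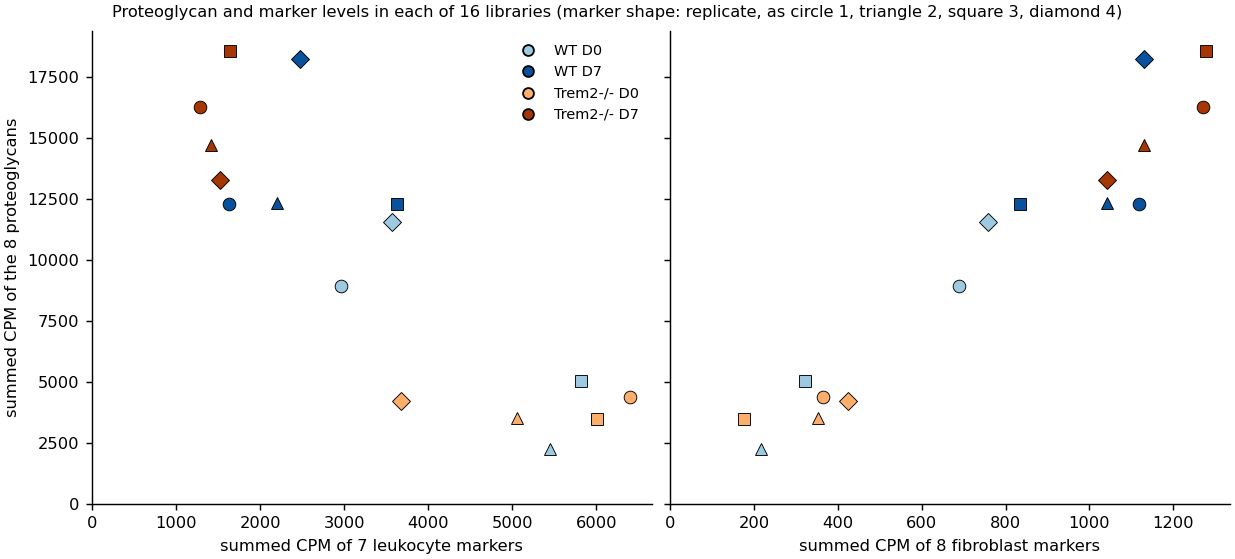
Summed CPM of the 8 proteoglycans against the summed CPM of 7 leukocyte markers (left) and of 8 fibroblast markers (right), 1 point per library. Against leukocyte markers the D7 libraries lie higher and mostly further left than the D0 libraries. WT D7 replicate 3 (3627 CPM of leukocyte markers) lies to the right of WT D0 replicates 1 (2961 CPM) and 4 (3570.2 CPM). Against fibroblast markers the points rise together, WT D0 replicates 1 and 4 lying nearest to the injured groups.

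Ratios of Bgn, Lum, Fmod and Prelp to Dcn were apart between injured and uninjured joints. They are among the 6 of 28 member pairs that were apart, a count near the background of all gene pairs. The ratio of biglycan to decorin reads within a library needs no scaling between libraries. It was 0.304, 0.368, 0.296 and 0.649 in WT D0 and 2.27, 2.01, 1.42 and 1.38 in WT D7. In Trem2-/- it was 0.382, 0.337, 0.243 and 0.482 at D0 and 1.94, 2.02, 1.32 and 1.55 at D7. All 8 uninjured samples lay at 0.649 or below and all 8 injured samples at 1.32 or above, including WT D0 replicate 2, whose ratio was inside the range of its group. Lumican per read of decorin was 0.0472 to 0.349 in the uninjured and 0.377 to 0.649 in the injured samples. The ratios of fibromodulin (0.227 to 0.623 against 0.708 to 1.10) and of PRELP (0.168 to 0.240 against 0.275 to 0.498) to decorin were also apart. Asporin and osteoglycin per read of decorin overlapped between D0 and D7. Over the 28 pairs of members, 6 had ratios that were apart between all D0 and all D7 samples, where 17.9% of the pairs of all genes with reads in every library were, so the count itself is near the background. Within WT 9 pairs were apart (23.2% of all gene pairs) and within Trem2-/- 14 pairs (53.6%).

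**Figure D4:**
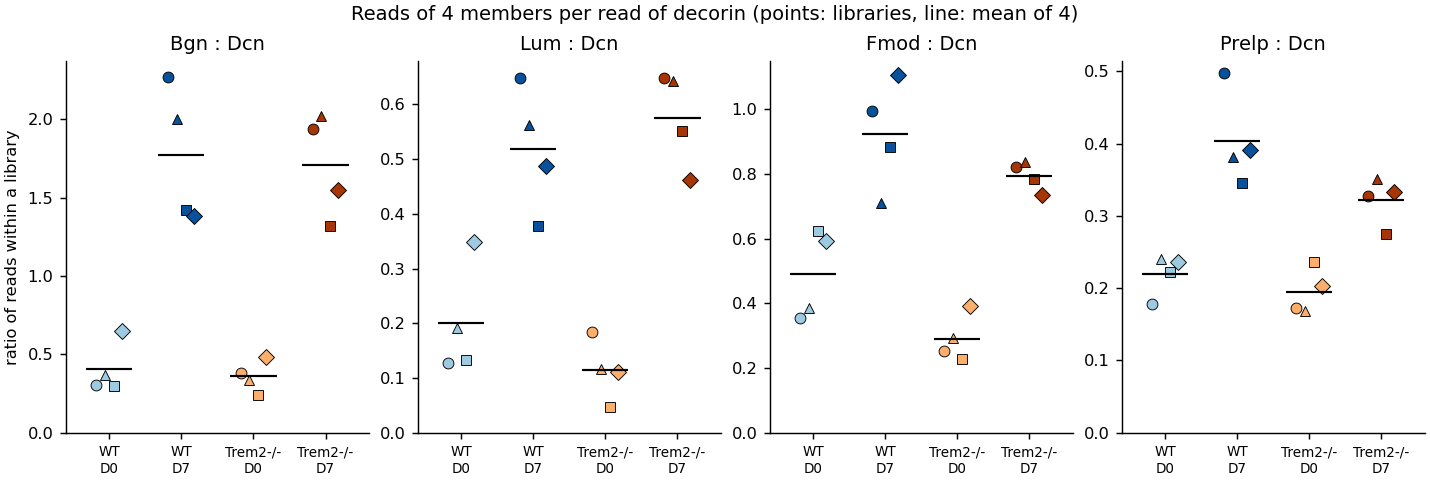
Reads of Bgn, Lum, Fmod and Prelp per read of Dcn in each library, on linear axes from 0; points are samples, marker shape the replicate number and lines the mean of 4. In each of the 4 panels all injured samples of both genotypes lie above all uninjured samples.

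Levels were compared between genes as CPM per kilobase of the principal GENCODE transcript, whose length ran from 1758 bases (Dcn) to 3615 bases (Prelp). In WT D0 decorin led with a mean level of 1517 CPM per kilobase, before Bgn (470.0), Fmod (418), Lum (229), Aspn (170.0), Prelp (156), Ogn (90.2) and Omd (31.9). The ranges of all 7 neighbouring pairs in that order overlapped. In WT D7 biglycan led at a level of 1925 CPM per kilobase and decorin followed at 1572, with overlapping ranges, and the other members kept their places. Of the WT D7 neighbours, Prelp (304) and Ogn (99.6) had ranges that were apart. In Trem2-/- the order again began with decorin at D0 (1023 CPM per kilobase, apart from biglycan at 267) and with biglycan at D7 (2171, overlapping decorin at 1799.8). Omd was the lowest and Ogn the second lowest in every group, and lumican had rank 6 in Trem2-/- D0 (84.9) and rank 4 in Trem2-/- D7 (739). The order depends on the length used: over the union of annotated exons, 5838 bases for Dcn and 6099 for Bgn, fibromodulin led in WT D7, and decorin had rank 4 there and rank 5 in Trem2-/- D7.

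The genotypes were compared at each time, the knockout having been included to examine the part of the receptor in macrophages of the injured joint. At D7 no member was called between Trem2-/- and WT by limma, where 5.72% of all genes were called in either direction, and 0 members had an unadjusted p under 0.05 there. EdgeR and voom on the recovered reads also called 0 members. The intervals of the differences were wide, and for biglycan the 95% interval of the log2 difference ran from -0.73 to 1.08. These intervals use the spread shared by all 4 groups, including WT D0. The median SD of a member's log2 level was 1.16 in WT D0, 0.463 in WT D7 and 0.297 in Trem2-/- D7. Biglycan itself spanned 4048 to 5365 CPM in WT D7 and 4498 to 5612 CPM in Trem2-/- D7. With only the D7 groups fitted by limma, its difference was 0.17 (unadjusted p = 0.379). Osteoglycin was the only member whose D7 groups did not overlap: the 4 Trem2-/- samples (366 to 593 CPM) lay above the 4 WT samples (145 to 335 CPM), where 3.55% of all genes were apart in that direction. Its log2 difference was 0.89 ± 0.45 (adjusted p = 0.713). Asporin had a log2 difference of 0.74 ± 0.47 (adjusted p = 0.783). Both were called higher when only the D7 groups were fitted. That fit called 471 of the 13173 genes tested higher and 895 lower, against 156 and 597 in the main fit. Osteoglycin was also called with the replicate number as a block, relative to the fibroblast markers (0.63), and without WT D0 replicate 2 or without Trem2-/- D0 replicate 3. Over all genes, 154, 6, 238 and 163 were called higher in these settings, in that order. Osteomodulin, encoded between them on chromosome 13, had a difference of -0.49 ± 0.57 (adjusted p = 0.894). The remaining 5 members differed by -0.11 (Prelp) to 0.38 (Lum) on the log2 scale. Leukocyte markers also differed between these groups: 6 of 7 were called lower in Trem2-/- at D7, where 597 of the 13173 genes tested were. Their sums were 1632 to 3627 CPM in WT and 1284 to 1644 CPM in Trem2-/-. Of the 3 tendon markers, Scx, a tendon transcription factor, was called higher in Trem2-/- at D7 (0.91 ± 0.35, adjusted p = 0.615). None of the 8 chondrocyte (median -0.49), 6 osteoblast (-0.45) or 8 fibroblast markers (0.24) was called between genotypes at D7. The part of any of these cell types in the osteoglycin difference was not tested.

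At D0 the mean of each of the 8 members was lower in Trem2-/- than in WT, but all 8 members overlapped between the groups, and 0.539% of all genes were lower without overlap. Lumican and fibromodulin were called lower, 2 of 8 members where 1.37% of all genes were called lower, and neither reached an adjusted p under 0.05 (0 genes in all did). Lumican averaged 559.7 ± 498 CPM in WT and 208 ± 112 CPM in Trem2-/- (SD, n = 4), with a log2 difference of -1.18 ± 0.50 (adjusted p = 0.9996). Fibromodulin averaged 1306 ± 744 and 519 ± 109 CPM, with a log2 difference of -1.09 ± 0.43 (adjusted p = 0.9996). WT D0 was the group with the widest spread. The median SD of a member's log2 level was 1.16 in WT D0, against 0.274 over all genes, and 0.395 in Trem2-/- D0. Without WT D0 replicate 2 all 8 members were called lower in Trem2-/- D0, where 6.70% of all genes then were. Of them 5 (Dcn, Fmod, Ogn, Omd and Prelp) were lower without overlap (3.20% of all genes). The log2 differences were then -1.60 for Lum and -1.62 for Fmod. The downward direction of this shift is built in, since replicate 2 was the lowest WT D0 library for every member. When WT D0 replicate 1, WT D0 replicate 4 or Trem2-/- D0 replicate 3 was left out, 0 were called, and the fit of the D0 groups alone called 0. Relative to the fibroblast markers 0 members were called at D0. Chondrocyte markers were lower in Trem2-/- D0 as well, 5 of 8 of them called, with sums of 1076 to 4157 CPM against 745 to 13140.4 CPM in WT.

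The genotypes' injury responses were compared by an interaction term, the D7 minus D0 difference in Trem2-/- less that in WT. It was above 0 for all 8 members and called for 3 of them, lumican (1.56 ± 0.70), asporin (1.47 ± 0.67) and osteoglycin (1.46 ± 0.64), where 2.77% of all genes were called in that direction. None of the 3 reached an adjusted p under 0.05 (adjusted p from 0.597 to 0.610), and no gene in the table did. For the remaining members the interaction ran from 0.42 (Prelp) to 1.11 (Fmod). This test rests on the same WT D0 libraries: 7 members were called without WT D0 replicate 2 (8.87% of all genes), and 0 without WT D0 replicate 1 or 4, WT D7 replicate 3, Trem2-/- D0 replicate 3, or Trem2-/- D7 replicate 1 or 3. A single member was called without WT D7 replicate 1 (Aspn) and without replicate 2 of either Trem2-/- group (Ogn). All 3 calls were lost relative to the fibroblast markers, a scale that partly follows the members. Marker lists also had interaction terms past the call: 6 of 7 leukocyte markers were called lower (median -0.97), where 661 of the 13173 genes tested were. Called higher were 2 of 3 tendon markers (median 1.36) and 1 of 8 fibroblast markers (median 0.69). These counts were 6, 3 and 5 without WT D0 replicate 2. With all libraries 0 of 8 chondrocyte markers (median 1.17), 0 of 6 osteoblast markers (0.36) and 1 of 12 collagens (1.30) were called higher. Without WT D0 replicate 2 these were 6, 0 and 10. The part of these lists in the members' interaction was not tested.

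Members lie together in the genome in several places, and 3 of them form a cluster on chromosome 13. In GRCm38, Aspn (chr13:49544443-49567565), Omd (chr13:49582462-49592822) and Ogn (chr13:49608046-49624501) follow each other on the plus strand with gaps of 14896 and 15223 bases, all within the bounds of Cenpp, which lies on the opposite strand, and Ecm2 lies 11653 bases before Aspn. Dcn (chr10:97479609-97518143) and Lum (chr10:97565128-97572703) are neighbours 46984 bases apart. Prelp (chr1:133910304-133921414, minus strand) and Fmod (chr1:134037254-134048277, plus strand) are 115839 bases apart, and Bgn (chrX:73483602-73495933) is on the X chromosome. Over the 16 libraries, the log2 levels of Aspn and Ogn had a Pearson r of 0.91, and 0.91 after the group means were removed. Omd, which lies between them, had r = 0.68 with Aspn and r = 0.63 with Ogn, the lowest of the 28 pairs of members. Within groups Omd had r = 0.51 with Aspn, and 0.89 with Fmod and 0.89 with Dcn, on other chromosomes. The neighbours Dcn and Lum had r = 0.72 over all libraries, whereas Lum and Bgn, on different chromosomes, had 0.96. These values are descriptions over 16 libraries that share their cell composition and scaling.

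The promoters of the chromosome 13 members are shown, since the outer members had the higher correlation and the middle one the lower, together with that of Bgn, the member called in both genotypes under every alternative. Each window holds 250 bases before and 50 bases after the start of the RefSeq transcript, from RefSeq on GRCm38.p6, which held 6 of the 8 members (not Dcn or Lum). It is written 5′ to 3′ on the plus strand, and capitals mark matches on either strand to 6 motifs. The motifs were the TATA box sequence TATAAA, the GC box sequence GGGCGG, the AP-1 site sequence TGANTCA, the RUNX family core TGTGGT, the TEAD family core GGAATG, and the CCAAT box.
Aspn: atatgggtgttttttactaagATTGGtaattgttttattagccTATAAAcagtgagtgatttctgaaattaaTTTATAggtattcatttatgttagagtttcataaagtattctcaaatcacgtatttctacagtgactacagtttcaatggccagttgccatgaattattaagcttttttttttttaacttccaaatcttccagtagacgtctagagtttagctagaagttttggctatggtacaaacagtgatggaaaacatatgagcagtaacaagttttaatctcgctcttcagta
Omd: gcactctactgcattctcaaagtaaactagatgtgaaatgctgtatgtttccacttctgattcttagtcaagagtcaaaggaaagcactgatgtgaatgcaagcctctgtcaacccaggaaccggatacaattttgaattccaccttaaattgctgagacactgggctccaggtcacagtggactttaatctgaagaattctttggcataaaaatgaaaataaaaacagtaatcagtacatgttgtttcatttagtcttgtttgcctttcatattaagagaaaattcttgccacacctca
Ogn: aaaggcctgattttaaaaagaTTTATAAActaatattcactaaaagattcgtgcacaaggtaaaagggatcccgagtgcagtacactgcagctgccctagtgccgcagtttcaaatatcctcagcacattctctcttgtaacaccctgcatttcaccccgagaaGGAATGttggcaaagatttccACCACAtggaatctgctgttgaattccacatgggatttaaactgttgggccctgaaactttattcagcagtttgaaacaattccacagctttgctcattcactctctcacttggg
Bgn: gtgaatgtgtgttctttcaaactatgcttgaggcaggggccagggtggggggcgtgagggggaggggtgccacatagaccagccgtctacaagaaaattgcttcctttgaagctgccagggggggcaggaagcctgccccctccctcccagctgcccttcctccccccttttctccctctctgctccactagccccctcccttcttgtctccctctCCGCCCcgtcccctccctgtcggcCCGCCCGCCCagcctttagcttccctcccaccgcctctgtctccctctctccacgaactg
The windows are chr13:49544193-49544492 for Aspn, chr13:49582212-49582511 for Omd, chr13:49607765-49608064 for Ogn and chrX:73483351-73483650 for Bgn. Aspn and Ogn each held 2 matches to TATAAA, which in Ogn overlap on opposite strands, and 14.2% of the 27025 promoters in the table held at least 1. Ogn also held 1 match to TGTGGT (16.9% of promoters) and 1 to GGAATG (14.6%), and Aspn 1 to CCAAT (37.9%). Omd had no match to any of the 6 motifs. Bgn held 3 matches to GGGCGG (35.9% of promoters), of which 2 overlap, and a GC content of 63.7%, against 31.0% in Aspn, 37.7% in Omd and 42.3% in Ogn. The Fmod and Prelp windows held 1 CCAAT match each, and TGANTCA (7.93% of promoters) was in none of the 6.

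Among other genes of the family, of 9 found, 7 passed the filter, of which 3 rose in WT and 5 in Trem2-/-, with none lower. Epyc (epiphycan, a cartilage proteoglycan) rose by 1.79 ± 0.53 on the log2 scale in WT (adjusted p = 0.0219) and by 2.50 ± 0.53 in Trem2-/- (adjusted p = 0.00117). Chadl and Tsku rose by 1.61 and 1.42 in WT. The medians of the 7 genes were 0.54 in WT and 1.77 in Trem2-/-. The summed level did not follow these counts: it was 333 to 2118 CPM in WT D0 and 562 to 2066 CPM in WT D7, and 545 to 1161 CPM and 578 to 1254 CPM in Trem2-/-. Most of it was Chad (chondroadherin, a cartilage matrix protein), which averaged 1155 CPM in WT D0 and 860.3 CPM in WT D7, with a log2 difference of -0.39 ± 0.64 (adjusted p = 0.664), and 614 and 527 CPM in Trem2-/- (-0.23 ± 0.64, adjusted p = 0.775).

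Genes for the sugar chains rose more often than they fell. Of 22 enzymes that build the linker and the chondroitin or dermatan sulfate chains, 15 rose and 1 fell in WT, and 17 rose and 1 fell in Trem2-/-, with medians of 0.79 and 0.88. The largest differences in WT belonged to the chain polymerases Chsy3 (1.71 ± 0.34, adjusted p = 0.00299) and Chpf (1.71 ± 0.33, adjusted p = 0.00291) and to the chain initiator Csgalnact1 (1.35 ± 0.22, adjusted p = 0.00123). Chpf averaged 50.2 CPM in WT D0 and 145 CPM in WT D7. The single gene of the list called between genotypes at D7 was the sulfotransferase Chst3 (-0.73 ± 0.25, adjusted p = 0.558). Of the 7 keratan sulfate enzymes found, 3 rose in WT (Chst2, Chst1 and B4galt1) and 4 rose and 2 fell in Trem2-/-, with medians of 0.23 and 0.94. In Trem2-/- 3680 of the 13173 genes tested fell, so 2 of 7 is near that background.

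Genes for proteinases that process or cut the cores rose in the majority. Of the 13 found, 7 rose and 1 fell in WT, and 10 rose and 1 fell in Trem2-/- (medians 1.27 and 1.92). The membrane-bound collagenase gene Mmp14 rose by 2.18 ± 0.44 in WT (adjusted p = 0.00356) and by 3.78 ± 0.44 in Trem2-/- (adjusted p = 2.14e-05). Mmp2, whose proenzyme is activated by the Mmp14 protein, rose by 1.87 and 3.15, and Pcolce, an enhancer of procollagen processing, by 1.92 in WT. Ctsk, the collagen-cutting cathepsin, rose by 2.78 in Trem2-/-. The gene that fell in both was Gzmb, a granzyme of cytotoxic lymphocytes (-0.76 and -1.64), which was also called lower in Trem2-/- than in WT at D7. At D0 Mmp13 was called lower in Trem2-/- (-2.36 ± 0.77, adjusted p = 0.9996).

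Among binding partners and receptors, of 14 found, 7 rose and 1 fell in WT, and 9 rose and 3 fell in Trem2-/- (medians 0.72 and 1.10). Over the 13173 genes tested, 2395 fell in WT and 3680 in Trem2-/-. The complement genes C1qa, C1qb and C1qc, whose protein binds several of the cores, rose by 2.25, 2.18 and 2.10 in WT and by 2.02, 2.23 and 1.97 in Trem2-/-. Tlr2, a receptor for soluble biglycan, had a log2 difference of -1.37 in Trem2-/- and was called lower in Trem2-/- than in WT at D7 (-0.58 ± 0.23, adjusted p = 0.615).

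The collagens that the members bind had a larger median difference than the members. All 12 collagen genes were called higher in both genotypes, with median log2 differences of 2.89 in WT and 4.16 in Trem2-/-. Col2a1, the collagen of cartilage, had the largest difference (4.45 ± 0.96 in WT and 5.65 ± 0.96 in Trem2-/-, adjusted p = 0.00480 and 2.34e-04). The 12 genes together held 6601 to 67336 CPM in WT D0 and 138318 to 201189 CPM in WT D7, and none was called between genotypes at D7, while 4 were called lower in Trem2-/- at D0. Chondrocyte markers, of which Col2a1 is 1, rose in 8 of 8 genes in both genotypes (medians 3.58 and 4.56), osteoblast markers in 4 of 6, and tendon markers in 1 of 3 in WT and 3 of 3 in Trem2-/-. Muscle markers fell in 2 of 6 genes in WT and 5 of 6 in Trem2-/-, where 2395 and 3680 of the 13173 genes tested fell. None of 5 endothelial markers was called in either genotype. The part of these cell types in the members' differences was not tested.

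With WT D0 replicate 2 left out, 2113 of the 13173 genes tested were called higher after injury in WT and 1951 lower. Of the collagens, 12 of 12 were called higher (median 2.44), as were 8 of 8 chondrocyte markers (median 2.69). The other genes of the family then had 2 of 7 called higher (median 0.27), the chondroitin and dermatan sulfate enzymes 14 of 22 with 1 lower (0.75), the keratan sulfate enzymes 3 of 7 with 1 lower (0.00), the proteinases 7 of 13 with 1 lower (1.03) and the binding partners 6 of 14 with none lower (0.40). Of the cell type markers, 5 of 8 fibroblast (0.76), 3 of 6 osteoblast (0.98) and 1 of 3 tendon markers (-0.15) were called higher, and 6 of 7 leukocyte (-0.70) and 3 of 6 muscle markers lower. At D0, 11 of 12 collagens, 8 of 8 chondrocyte markers, 7 of 13 proteinases, 7 of 22 chondroitin and dermatan sulfate enzymes, 4 of 8 fibroblast markers and 3 of 3 tendon markers were then called lower in Trem2-/-.

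**Figure D5:**
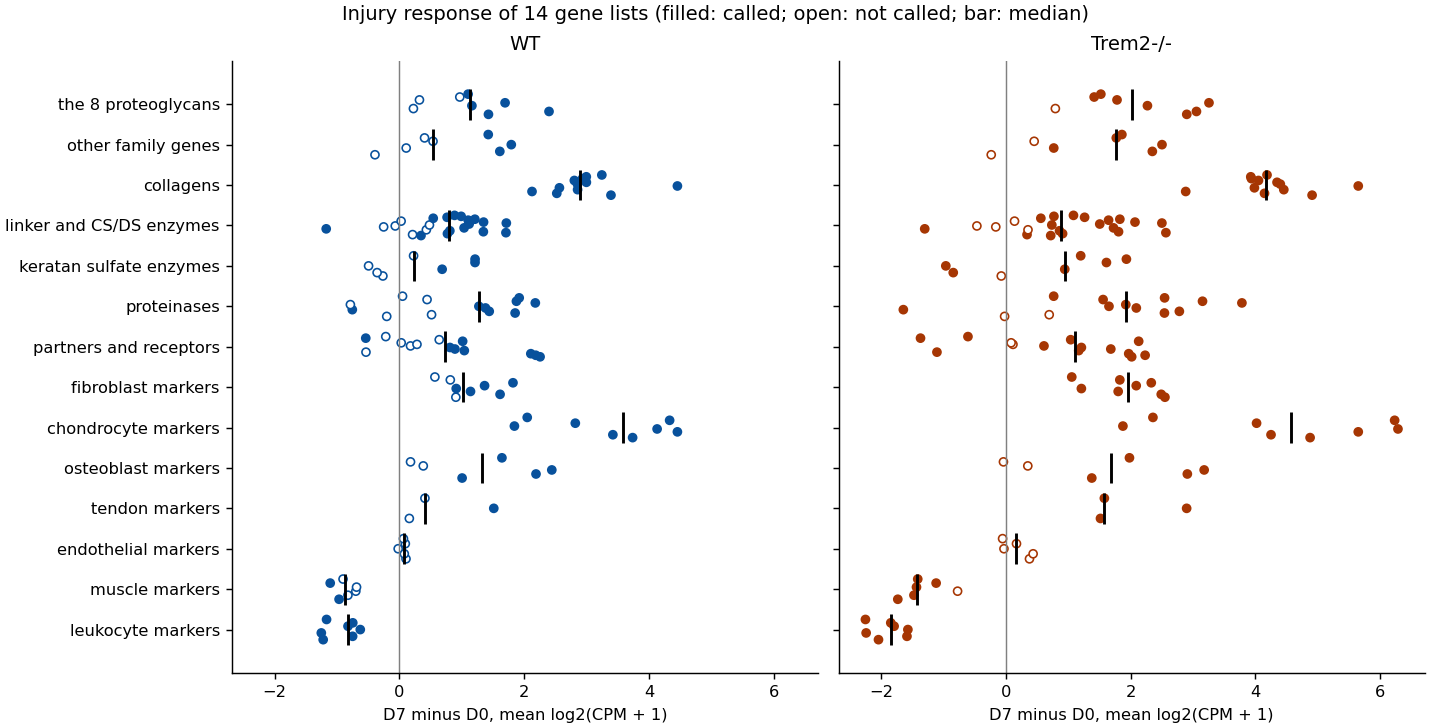
D7 minus D0 differences of mean log2(CPM + 1) for every tested gene of 14 lists in WT (left) and Trem2-/- (right); filled points were called, open points were not, and the bar is the list's median. The proteoglycans lie between the collagens and chondrocyte markers, whose medians are higher, and the endothelial markers near 0, with muscle and leukocyte markers below 0.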

How the data were processed

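Knee joint RNA-seq libraries, 16 in all and 4 in each group, were grouped by the genotype and injury given in the labels. Per the study's methods the authors aligned reads to mm10 with STAR, counted reads per gene with featureCounts and normalized with the TMM method of edgeR; versions are not given in the sources used here. The deposited values are a normalized signal, CPM relative to the TMM-scaled library size. Of 13734 rows, 1 repeats a listed gene with equal values.

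From the deposited values the whole reads were recovered from the step of 1 read per library (100% of values within 0.01 of a whole number), at 11567073 to 32867818 reads (median 16399898) per library. A count of 3 reads corresponds to 0.101 to 0.250 CPM. Values were tested on log2(CPM + 1) with limma 3.58.1 (trend) in R 4.3.3 for 13173 genes with at least 1 CPM in 4 of 16 libraries, with 4 groups as one factor; fold changes on this scale understate those of low genes. Calls required p under 0.05 and a fold above 1.25, two-sided, with Benjamini-Hochberg values beside them, and intervals are 95% moderated intervals. EdgeR 4.0.16 and voom on recovered reads were alternatives, and the fits were tested on simulated data. All members are named. Of each other list, up to 3 called genes per comparison are named, by largest change among those averaging 5 CPM or more. Members and lists were chosen with earlier results of these data known. Marker lists: fibroblast (Pdgfra, Pdgfrb, Prrx1, Twist1, Twist2, Thy1, Fap, Cdh11) and leukocyte (Ptprc, Cd52, Cd53, Coro1a, Laptm5, Lcp1, Rac2). Positions are from GENCODE M21 (GRCm38), in which 13428 symbols matched. List genes absent from the table were not analysed here.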

Additional observations from a re-analysis of the deposited data

Results flagged for a closer look

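Dcn in Trem2-/- D7 had 1 sample far from the others: replicate 3 stood at 4228 CPM and the other 3 samples between 2633 and 2899.7 CPM. The gap to the nearest sample was 0.833 of the group's range, just past the critical value. It was the only 1 of 32 groups of 4 values (8 members in 4 groups) to pass, and chance passes about 1 in 20. Replicate 3 also had the highest level of Fmod, Prelp, Omd and Lum in that group.

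The interaction term of limma was called, at an unadjusted p under 0.05, for Lum (1.56 on the log2 scale), Ogn (1.46) and Aspn (1.47). The adjusted p-values were 0.607, 0.597 and 0.610. Of all genes, 2.77% were called in that direction, and leaving out 1 library at a time called 0 to 7 members in the interaction. The Trem2-/- groups did not overlap for 8 of 8 members, and the WT groups overlapped for 6 of 8. Overlap therefore does not set the 3 genes apart from the other members. The fibroblast marker sums were 216 to 758 CPM in WT D0 and 177 to 425 CPM in Trem2-/- D0, and relative to those markers none of the 3 was called. The interaction was also called for 6 of 7 leukocyte markers, all lower (median -0.97), and for 2 of 3 tendon markers, both higher (median 1.36). Of the 13173 genes tested, 661 were called lower. None of 8 chondrocyte (median 1.17) or 6 osteoblast markers (0.36) was called. The part of these markers in the members' interaction was not tested.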

How the results depend on the processing

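Leaving out 1 library at a time, 4 to 6 members were called for D7 against D0 in WT, 6 to 8 in Trem2-/-, 0 to 1 between genotypes at D7, 0 to 8 at D0 and 0 to 7 in the interaction. Relative to the fibroblast markers 1 member was called higher and 2 lower in WT, 3 higher and 1 lower in Trem2-/-, 1 higher at D7 (Ogn), 0 at D0 and 0 in the interaction, where 78.4% (WT) and 92.1% (Trem2-/-) of all genes were called lower after injury. On that scale the direction turned for Dcn (-0.92 in WT, -1.13 in Trem2-/-, -0.051 at D7, 0.16 at D0, -0.21 in the interaction), Bgn (-0.091 at D7, 0.029 at D0, -0.12 in the interaction), Ogn (-0.82 in WT, -0.14 in Trem2-/-), Omd (-0.17, -0.50 and, in the interaction, -0.33), Prelp (-0.041, -0.40 and -0.36) and Fmod (-0.25 at D7). The fit of only the groups compared called 2 members at D7 (Aspn, Ogn) and 0 at D0, and gives no interaction. Over all genes it called 471 higher at D7, against 156 in the main fit. EdgeR on the recovered reads called 4 members lower at D0, where it called 357 of all genes lower, against 180 in the main fit. Voom called 1 member higher in the interaction, where it called 347 of all genes higher. An adjusted threshold called 0 members at D0 and 0 in the interaction. Quantile normalization turned Dcn in WT to -0.32 and Bgn at D7 to -0.00863, and edgeR turned Fmod at D7 to -0.060. Without WT D0 replicate 2, Dcn (-0.21) and Ogn (-0.19) turned in WT (ranges -0.21 to 0.50 and -0.19 to 0.59 over the libraries left out). At D7 Fmod turned without WT D7 replicate 1 (-0.077), WT D7 replicate 2 (-0.18) or Trem2-/- D7 replicate 3 (-0.13), up to 0.29 without another, and Prelp ran from -0.20 to 0.061, the latter without WT D7 replicate 4. The cause was not tested.

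In no comparison did every pair of same-numbered samples correlate above 0.1 in their deviations from the group means (-0.51 to 0.41), so the numbers were not taken to pair samples. With the replicate number as a block, 1 member (Ogn) was called at D7, 5 in WT, 8 in Trem2-/-, 2 at D0 and 4 in the interaction. Over all genes, 154, 2534, 3467, 182 and 342 were then called in the same direction as these members. In the 4 comparisons, 5, 2, 3 and 1 of 8 samples correlated best with their own number. Pseudocounts of 0.1 and 5, no filter, a mean of at least 5 CPM, median-of-ratios rescaling and a fold above 1.5 kept every count within 1 of its value. Depth limits no member, and 4 samples a group limit the genotype comparisons. Between genotypes at D7 quantile normalization moved the split of all calls from 156 higher and 597 lower to 246 and 492.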

Other observations

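Non-member genes averaging 5 CPM or more were ranked by how closely their log2 level over the 16 libraries followed the mean of the 8 standardised members. The first 5 were Col8a2 (r = 0.987), Clec11a (0.987), Olfml3 (0.984), Nfatc1 (0.984) and Pdgfrl (0.984), as a description over 16 libraries that share scaling and cell composition. With the group means removed these values were 0.953 (Olfml3) to 0.979 (Col8a2). Col8a2 encodes a short-chain collagen, Clec11a a secreted bone growth factor, Olfml3 a secreted matrix glycoprotein and Nfatc1 a transcription factor. Col8a2 averaged 72.4 CPM in WT D0, 145 in WT D7, 32.7 in Trem2-/- D0 and 203 in Trem2-/- D7. The highest agreement between any pair of members within groups was that of Dcn and Prelp (r = 0.93), on different chromosomes.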
